A study of Mus musculus with 12 samples.

Results

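The genes described here are a set of 35 symbols named for the meninges, the fibroblasts that build them and the collagen-rich matrix these cells lay down. They were listed by gene name, with earlier results of these data known. Of the 35 genes, 34 were read from a probe set that the array annotation ties to that symbol alone, out of 19938 genes measured in all, and Spp1 was not analysed here. The arrays came from the hippocampus and the olfactory bulb of adult C57BL/6 mice that were either wild type (labelled WT) or knockout for RasGRF2 (labelled GRF2 KO), with 3 animals per genotype. RasGRF2 is a guanine nucleotide exchange factor that activates small GTPases in neurons. The 4 groups were therefore WT hippocampus, GRF2 KO hippocampus, WT olfactory bulb and GRF2 KO olfactory bulb, with 3 arrays in each and 1 array per tissue sample. All animals were untreated and lived in a conventional facility where they met common pathogens. The labels do not describe the targeted allele, and each sample was total RNA of a whole dissected tissue.

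The brain is wrapped in the pia, arachnoid and dura, and fibroblasts of these membranes follow the larger vessels into the tissue. They secrete collagens, small leucine-rich proteoglycans that bind and space collagen fibrils, retinoic acid and insulin-like growth factor 2, and the arachnoid and pial cells carry solute transporters that help to form a barrier. Several of these genes are also made by other cells of the brain. In bulk RNA of a dissected tissue, fewer cells of a type and less RNA per cell cannot be told apart.

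Values are log2 intensities normalized by the submitters, and a difference of 1 is a 2-fold change. Levels of different genes are not compared, because each gene was read by its own probes. The arrays within each group were alike over all probe sets, with an SD of the difference between 2 replicates of 0.212 to 0.297 and array medians between 6.82 and 6.96. Rasgrf2 itself was lower in the knockout hippocampus by a log2 difference of -0.58 (SE 0.077, limma adjusted p = 0.00197) and differed by -0.14 in the bulb (limma adjusted p = 0.532). The tissue labels held in both genotypes, since 4 of 4 measured hippocampal marker genes were higher in hippocampus and 5 of 5 bulb markers were lower there. Arrays are called by the animal number in the sample title. A second animal code in the labels pairs the tissues of WT animals 1 and 2 the other way round, so no statement below rests on which hippocampus and which bulb shared an animal.

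In the hippocampus these genes were spread most widely among the WT animals. In WT hippocampus, the array of animal 1 held the highest of the 3 values for 28 of the 34 genes, and the array of animal 2 held the lowest for 23. From animal 2 to animal 1, 11 of the 34 genes stood more than 2-fold higher, against 30 of all 19938 genes. The median SD of the 34 genes over the WT hippocampal arrays was 0.388, beside a median of 0.0848 for all genes, and 25 of the 34 had an SD above the 90th percentile of all genes. In KO hippocampus the same median SD was 0.128 beside 0.0999 for all genes, and no member spanned a range above 1 on the log2 scale.

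**Figure D1:**
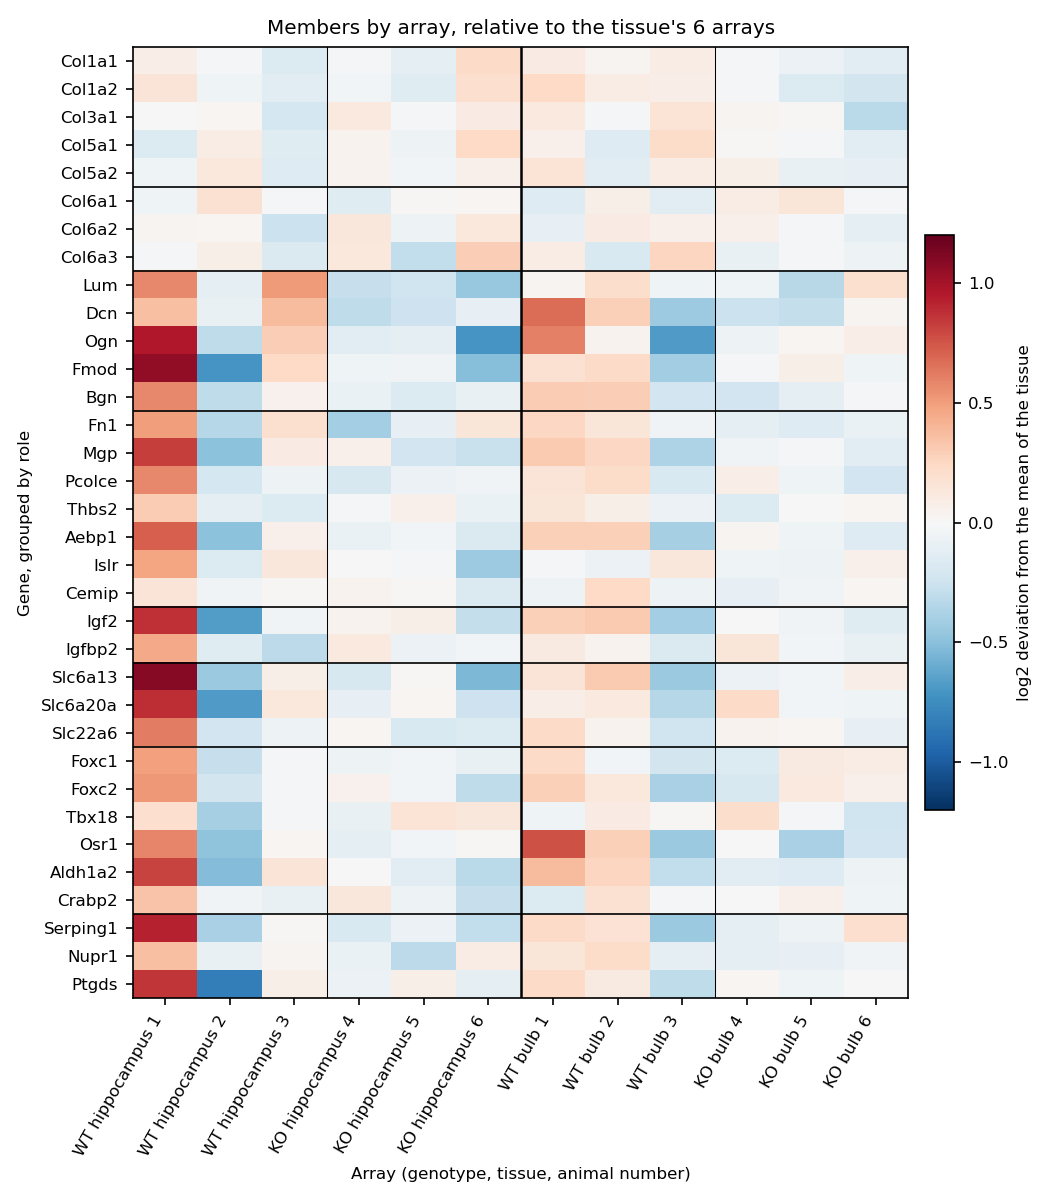
Each row is one gene, grouped by role, and each column is one array, and the colour gives the log2 value minus the mean over the 6 arrays of that tissue. The array of WT animal 1 in hippocampus is high for 28 of the 34 genes within its group and that of animal 2 is low for 23, while the collagen rows show little of this.

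The barrier transporters followed this order closely. Slc6a13, which carries GABA and taurine, read 9.09, 7.55 and 8.07 in the hippocampus of WT animals 1, 2 and 3 and 7.80, 8.01 and 7.46 in that of KO animals 4, 5 and 6. Slc6a20a, a transporter of proline and related imino acids, read 9.64, 8.07 and 8.88 in the WT hippocampus and 8.66, 8.77 and 8.50 in the KO hippocampus. In both genes WT animal 1 stood above every KO array, WT animal 2 fell within or below the KO values, and the groups overlapped. Slc22a6, the organic anion transporter known as OAT1, read 7.70, 6.85 and 7.03 in WT and 7.11, 6.91 and 6.93 in KO, with WT animal 1 again the highest array.

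Among the secreted proteins, Ptgds, the prostaglandin D synthase that arachnoid cells release into the cerebrospinal fluid, read 12.71, 11.02 and 11.91 in the WT hippocampus. That is a 3.22-fold gap between animals 1 and 2. The KO hippocampal arrays lay between these, at 11.78, 11.92 and 11.74. Igf2, the growth factor made by the leptomeninges and choroid plexus, read 9.96, 8.41 and 9.04 in WT and 9.12, 9.15 and 8.80 in KO. Its 3 KO values again lay inside the range of the 3 WT values. Serping1, the inhibitor of complement C1, read 8.73, 7.42 and 7.83 in WT and 7.63, 7.74 and 7.51 in KO. Igfbp2, which binds insulin-like growth factors, had a smaller range, with 8.10, 7.49 and 7.33 in WT and 7.76, 7.57 and 7.61 in KO.

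Of the small leucine-rich proteoglycans, Fmod (fibromodulin) had the widest range of all 34 genes, with 8.63, 6.86 and 7.81 in the WT hippocampus and 7.51, 7.52 and 7.05 in the KO hippocampus. Ogn (osteoglycin, also called mimecan) read 8.75, 7.49 and 8.08 in WT and 7.65, 7.67 and 7.08 in KO. Bgn (biglycan) read 8.81, 7.92 and 8.28 in WT and 8.15, 8.07 and 8.14 in KO. In these 3 genes WT animal 1 was above every KO array, while WT animal 2 was below at least 2 of the KO arrays. Lum (lumican) and Dcn (decorin) had another order, in which WT animals 1 and 3 were close together and animal 2 was lower, and they are given with the genotype comparison.

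The matrix and matrix-processing proteins were less uniform. Mgp, the matrix inhibitor of calcification, read 7.53, 6.20 and 6.80 in the WT hippocampus, and Aebp1, a collagen-binding protein, read 8.06, 6.85 and 7.40. Both genes put WT animal 1 above and WT animal 2 below all 3 KO hippocampal arrays, which spanned 6.43 to 6.76 for Mgp and 7.17 to 7.31 for Aebp1. Pcolce, which enhances the cleavage of procollagen, read 8.02, 7.23 and 7.38 in WT. Thbs2 (thrombospondin 2) and Cemip, a hyaluronan-degrading protein, had the narrowest ranges of this group, at 0.47 and 0.20. The transcription factor genes and retinoic acid genes had WT animal 1 highest in 6 of 6. Aldh1a2, the enzyme that makes retinoic acid in the meninges, read 7.77, 6.44 and 7.12 in WT and 6.96, 6.84 and 6.64 in KO. Foxc1, needed for meningeal development, read 7.42, 6.65 and 6.91 in WT and 6.87, 6.91 and 6.85 in KO. Its relative Foxc2 had WT animal 1 at 6.96 and a KO range of 6.13 to 6.48. Tbx18, a T-box factor of pericytes and mesenchyme, differed less, with 6.31, 5.71 and 6.10 in WT and 6.02, 6.28 and 6.25 in KO. Nupr1, a stress-responsive nuclear protein, read 7.78, 7.34 and 7.46 in WT and 7.35, 7.11 and 7.52 in KO.

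The collagens did not share this order. Over the WT hippocampal arrays the 8 collagen genes spanned ranges of 0.23 to 0.29, beside up to 1.77 in the set. Their SDs there, 0.121 to 0.168, were still above the median of 0.0848 for all genes. Col3a1, a fibrillar collagen of soft tissues, read 6.97, 7.01 and 6.77 there, and Col6a1, a chain of the beaded-filament collagen VI, read 7.91, 8.14 and 7.93. Neither gene had WT animal 1 as its highest array. The same held for Col5a1, Col5a2 and Col6a3, while in Col6a2 animals 1 and 2 were level at 7.51 and 7.50. Col1a1, the main chain of collagen I, read 7.87, 7.78 and 7.62, and Col1a2, its partner chain, read 7.53, 7.33 and 7.25. Those 2 genes had WT animal 1 highest, by 0.09 and 0.21 over animal 2. Col3a1, Col5a2 and Col6a3 were mostly below the median of all genes' values (7.28), as were Lum, Mgp, Foxc1, Foxc2, Tbx18 and Crabp2. What part low signal had in the collagen ranges, narrower than those of most of the set, was not tested.

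**Figure D2:**
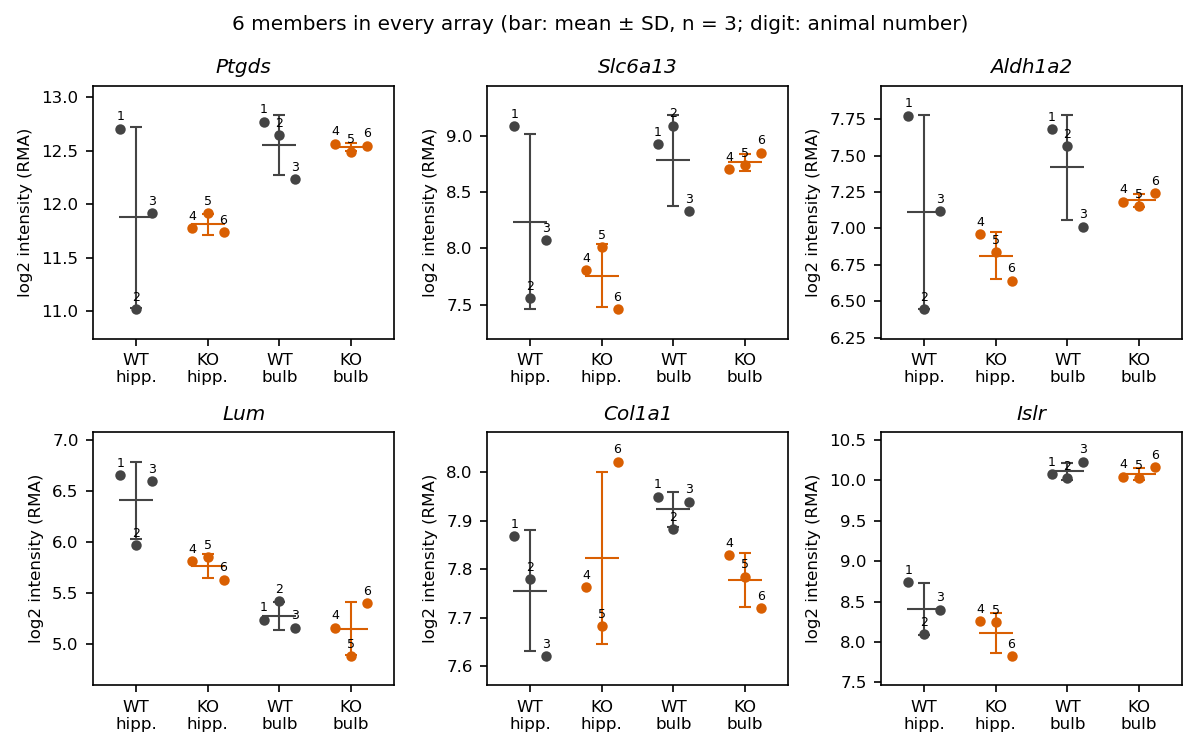
The log2 intensity of 6 genes in every array is shown by group, with each point marked by its animal number and the bars giving mean and SD of 3 arrays. For Ptgds and Slc6a13 the WT hippocampal points span 1.69 and 1.53 log2 units while the KO hippocampal points span 0.18 and 0.55.

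The WT bulbs showed a milder version, with another array apart. The median SD of the 34 genes was 0.220 in WT bulb beside 0.0965 for all genes, and 0.0877 in KO bulb beside 0.0793. WT animal 3 gave the lowest bulb value in 24 of the 34 genes. Osr1, a transcription factor of mesenchyme, read 7.93, 7.46 and 6.73 in the WT bulbs and 7.18, 6.78 and 6.94 in the KO bulbs. Ogn read 8.09, 7.53 and 6.81 in WT bulb and 7.43, 7.52 and 7.57 in KO bulb, and Dcn read 10.24, 9.86 and 9.14 in WT and 9.31, 9.29 and 9.60 in KO. In Ogn and Dcn, WT animal 1 was above all KO bulbs and WT animal 3 below all of them. These 3 genes were the only members with a range above 1 in the WT bulb.

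To describe how closely the genes kept one order, each gene's deviations from its 4 group means were correlated with the mean deviation of the other 33 genes over 12 arrays. The arrays share the same probes and normalization, and the genes were listed together with earlier results of these data known. With 3 arrays per group there are few free values, so the correlation is a description only. It was above 0.8 for 18 of the 34 genes. The highest values were those of Igf2 (0.981), Aebp1 (0.98), Mgp (0.977) and Aldh1a2 (0.976), and without the WT hippocampal arrays they were 0.93, 0.965, 0.936 and 0.954. Other genes depended more on those arrays. Without them Pcolce (0.701), Thbs2 (0.627), Igfbp2 (0.749), Slc6a13 (0.783) and Foxc1 (0.671) were no longer above 0.8. Fn1 fell from 0.745 to 0.255, Lum from 0.632 to 0.272 and Islr from 0.58 to -0.246. Tbx18 fell from 0.597 to -0.0636 and Crabp2 from 0.52 to 0.0399, while Dcn rose from 0.608 to 0.834. With all 12 arrays the 3 barrier transporters lay between 0.942 and 0.959. The 5 fibrillar collagens lay between -0.61 for Col5a1 and 0.44 for Col1a2, and the 3 collagen VI genes between -0.381 and 0.00686.

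Promoter sequence is shown for the genes at both ends of this order, so that the windows upstream of genes that varied together and of genes that did not can be read side by side. The sequences are RefSeq's for GRCm38.p6, each the 250 bases before the annotated start on the gene's strand, 5′ to 3′. The table held an entry for 24 of the 34 genes. Of the 14 genes with 1 entry that starts at the gene's outer end, the 3 with the highest and the 2 with the lowest correlation are printed. Capitals mark matches, on either strand, to 5 motifs. They are the TATA box (TATAAA), the CCAAT box (CCAAT), the GC box (GGGCGG), a forkhead motif (GTAAACA) and a T-box motif (TCACACCT). The coordinates are chr11:5861616-5861865 on the plus strand for Aebp1, chr9:71215539-71215788 on the plus strand for Aldh1a2, chr19:8617746-8617995 on the plus strand for Slc22a6, chr10:76726045-76726294 on the minus strand for Col6a1 and chr1:45311288-45311537 on the plus strand for Col3a1.
Aebp1: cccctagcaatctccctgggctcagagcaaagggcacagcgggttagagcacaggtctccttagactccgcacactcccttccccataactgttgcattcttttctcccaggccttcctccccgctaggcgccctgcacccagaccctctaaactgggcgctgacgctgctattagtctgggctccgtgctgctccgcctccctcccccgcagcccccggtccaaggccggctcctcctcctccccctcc
Aldh1a2: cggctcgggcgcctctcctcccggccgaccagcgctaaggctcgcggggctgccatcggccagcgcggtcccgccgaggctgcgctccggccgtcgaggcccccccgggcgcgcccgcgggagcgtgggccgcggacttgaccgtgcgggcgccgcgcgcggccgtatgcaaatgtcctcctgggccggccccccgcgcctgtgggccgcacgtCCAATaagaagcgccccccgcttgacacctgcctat
Slc22a6: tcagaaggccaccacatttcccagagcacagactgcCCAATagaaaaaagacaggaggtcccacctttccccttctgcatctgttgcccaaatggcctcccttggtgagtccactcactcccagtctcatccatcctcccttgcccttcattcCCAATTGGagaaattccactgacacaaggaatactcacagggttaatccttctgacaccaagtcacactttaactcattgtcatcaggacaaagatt
Col6a1: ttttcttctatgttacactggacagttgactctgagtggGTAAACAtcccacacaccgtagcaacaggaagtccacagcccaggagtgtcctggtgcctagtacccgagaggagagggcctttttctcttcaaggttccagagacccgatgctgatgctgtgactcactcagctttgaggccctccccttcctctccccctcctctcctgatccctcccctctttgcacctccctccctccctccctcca
Col3a1: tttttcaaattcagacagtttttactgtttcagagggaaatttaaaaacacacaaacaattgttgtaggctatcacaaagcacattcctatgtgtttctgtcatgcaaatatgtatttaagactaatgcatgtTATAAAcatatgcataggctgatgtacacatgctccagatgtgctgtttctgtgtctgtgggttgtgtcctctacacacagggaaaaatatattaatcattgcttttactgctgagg

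The Aebp1 window held no match. The Aldh1a2 window had a CCAAT box starting 36 bases before the start site, and the Slc22a6 window had CCAAT matches at 214, 97 and 94 bases, the last 2 of them overlapping on opposite strands. Col6a1 had a forkhead match 211 bases before the start and Col3a1 a TATAAA match at 117 bases. Over the 31 windows of the listed genes, 4 held TATAAA, 8 CCAAT, 14 GGGCGG, 1 the forkhead motif and 0 the T-box motif. Of the 32851 windows in the table, these motifs were in 12.4%, 33.8%, 32.7%, 3.17% and 1.12%. A match is only a run of letters and not a bound site.

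Outside the set, the genes whose deviations were closest to the mean of the 34 were named by rank, 15 in number. The first was Rgcc, a cell cycle regulator, with a correlation of 0.98 over 12 arrays, followed by Vim (0.979), the intermediate filament vimentin of mesenchymal cells. Next came Zfp580 (0.977), Bicc1 (0.974), Atp1b2 (0.972), Kcnj13 (0.967), a potassium channel of transporting epithelia, and Gjb2 (0.959), a gap junction protein of leptomeningeal cells. Myl9 (0.958), a smooth muscle myosin light chain, Bmp7 (0.958), a growth factor of the meninges, Fxyd5 (0.952), Apod (0.949), C1qb (0.945), Stat6 (0.943), Rac1 (0.94) and Tmem176b (0.94) completed the list. Over all genes outside the set, the median correlation was -0.0386 and the 99th percentile 0.833. Kcnj13 read 8.27, 6.19 and 7.16 in the WT hippocampus, a range of 2.09 beside 1.77 for Fmod, and Vim read 10.11, 9.56 and 9.73. Both have the order of WT animals 1, 3 and 2, which follows from their choice by correlation with the set.

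Marker lists of other cells moved with the set to differing degrees. For each array the mean deviation from its tissue's mean was taken over each list. In the WT hippocampus of animals 1, 2 and 3 it was 0.473, -0.246 and 0.0129 for the 34 genes and 0.249, -0.123 and -0.0301 for 29 other meningeal and fibroblast genes. It was 0.334, -0.145 and -0.0309 for 11 pericyte and smooth muscle genes, 0.216, -0.0689 and 0.079 for 11 endothelial genes and 0.262, -0.213 and -0.172 for 13 choroid plexus genes. WT animal 1 was thus highest in each of these lists. For 9 neuronal genes the values were 0.0443, -0.0411 and 0.00972, for 9 astrocyte genes -0.0049, -0.052 and -0.0199 and for 8 myelin genes -0.0532, -0.191 and -0.0918. In the neuronal, astrocyte and myelin lists, too, WT animal 1 was the highest and animal 2 the lowest of the WT hippocampi. In KO hippocampus the 34 genes stood at -0.0494, -0.0725 and -0.118. Gene by gene, WT animal 1 was the highest WT hippocampus in 21 of the 29 other meningeal genes, 9 of 11 pericyte and smooth muscle genes, 9 of 11 endothelial genes and 10 of 13 choroid plexus genes. It was the highest in 4 of 9 neuronal, 3 of 9 astrocyte and 5 of 8 myelin genes.

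Over 12 arrays the correlation with the mean deviation of the 34 genes was 0.976 for the other meningeal genes, 0.963 for pericytes and smooth muscle, 0.881 for endothelium and 0.79 for choroid plexus. Without the 3 WT hippocampal arrays these were 0.933, 0.859, 0.682 and 0.0457. It was 0.861 for TGF-beta genes, 0.808 for basement membrane and 0.804 for border macrophages, and 0.612, 0.597 and 0.566 without those arrays. For astrocytes it was 0.657 over 12 arrays and 0.706 without the WT hippocampi, and for neurons 0.557 and -0.114. The correlation does not carry the size of a deviation, which for the astrocyte and neuronal lists stayed within 0.06 of 0 in every array. In the bulb, 7 genes of olfactory sensory neurons and mucosa had mean deviations of 0.626, 0.0179 and -0.317 in WT animals 1, 2 and 3. The 34 genes had 0.185, 0.126 and -0.171 in the same bulbs, the same order. The 7 genes were uneven, with KO minus WT differences in bulb from -0.98 to 0.33. The correlation of their mean deviation with that of the 34 genes was 0.522, and 0.802 without the WT hippocampi. What part the amount of attached membrane, vessel or mucosa had in the values of the 34 genes was not tested.

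**Figure D3:**
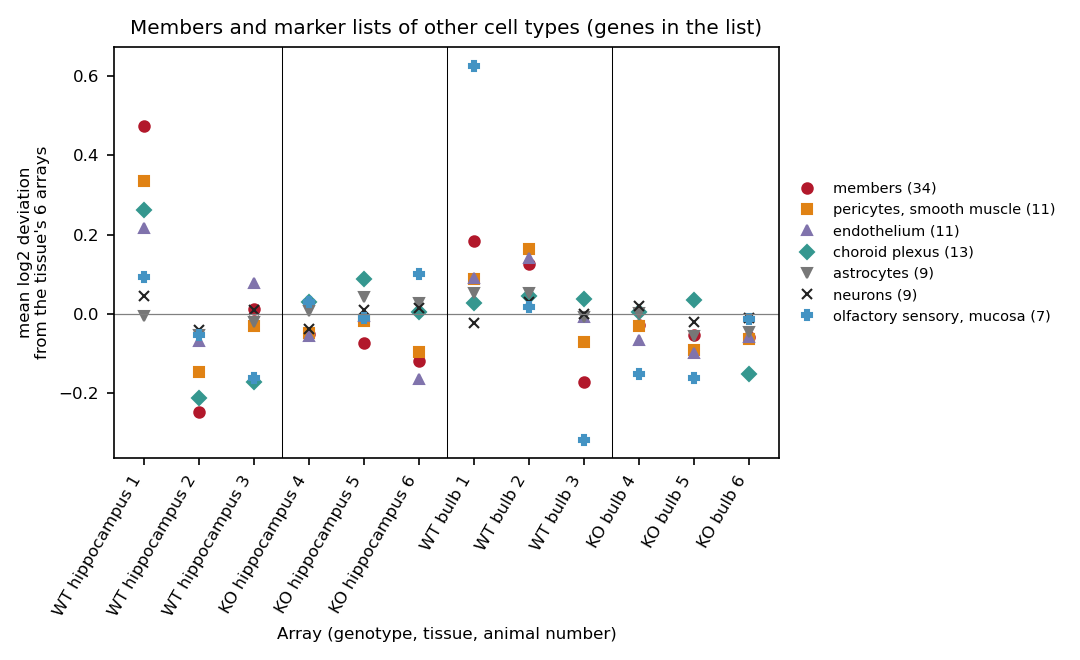
Points give, for the 34 genes and for marker lists of other cells, the mean log2 deviation from the 6 arrays of the same tissue, in each of the 12 arrays. In hippocampus WT animal 1 peaks at 0.473 for the 34 genes and at 0.334 for pericytes and smooth muscle, whereas the neuronal list stays within 0.05 of 0.

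The first question of the design was whether the knockout differs from wild type in the hippocampus. None of the 34 genes passed the test, and the differences farthest from 0 were those of the proteoglycans Lum and Ogn. Differences lay below 0 for 25 of the 34 genes, with a median of -0.17, while over all genes 37% lay below 0 and the median was 0.034. In the limma fit over all genes, 0 of 34 passed an adjusted p of 0.05, with 0.256% of all genes doing so, and the lowest adjusted p of a member was 0.171. Lum, Ogn and Islr had an unadjusted p under 0.05, which is 3 genes or 8.82% of the set, beside 8.91% of all genes. Without the array of WT animal 1 the median was 0.04, beside 0.035 for all genes in that fit. There 24 of the 34 differences lay above 0. Without animal 2 the median of the 34 genes was -0.35 with 27 below 0, beside 0.039 for all genes. Without animal 3 it was -0.21 with 29 below 0, beside 0.027 for all genes. Without animals 1 and 2 together, which leaves 1 WT array, it was -0.06 with 23 below 0.

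Lum, a proteoglycan that organises corneal and meningeal collagen, read 6.66, 5.97 and 6.60 in the WT hippocampus and 5.81, 5.85 and 5.63 in the KO hippocampus. All 3 KO arrays were below all 3 WT arrays. The log2 difference was -0.65 (SE 0.16, 95% interval -0.99 to -0.31, limma adjusted p = 0.171). Over 21 alternative fits the limma adjusted p fell below 0.05 in 2. They were the fit with array weights (0.0244, with 1.69% of all genes passing) and the fit without WT animal 2 (0.00785, with 0.216%). The array weights gave the hippocampus of KO animal 4 a weight of 4.31, beside 0.539 and 0.47 for KO animals 5 and 6. Lum was left out by the filter on low values, so that fit did not include it. Dcn, which binds collagen I and growth factors, read 10.22, 9.78 and 10.24 in WT and 9.56, 9.61 and 9.76 in KO. Its groups also did not overlap, and the difference was -0.44 (SE 0.20, limma adjusted p = 0.567). Groups that did not overlap with KO lower were found for these 2 of the 34 genes, 5.88%, beside 3.66% of all genes. Groups with KO higher were found for 0 of the 34, beside 9.39%, so that in either direction the share was 5.88% beside 13.1% of all genes.

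All 5 small leucine-rich proteoglycans had negative differences in hippocampus. For Ogn the difference was -0.64 (SE 0.30, limma adjusted p = 0.561), for Fmod -0.40 and for Bgn -0.22. WT animal 1 was the highest array for Ogn, Fmod and Bgn, the KO values of Fmod and Bgn lay within the WT range, and 1 KO value of Ogn lay below it. The 3 barrier transporters and the 7 other matrix proteins also had negative differences, with medians of -0.22 and -0.20, of which Slc6a13 had the largest at -0.48 (SE 0.28, limma adjusted p = 0.637). The 5 fibrillar collagens went the other way, between 0.02 and 0.15, with 1 of them turning below 0 when each array was centred on its median. None of these gene groups held a gene past the threshold.

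In the bulb the question was the same, and again none of the 34 genes passed. Of the 34 genes 27 lay below 0, with a median of -0.083, beside 55.5% of all genes and a median of -0.016. The limma adjusted threshold was passed by 0 of 34 genes and by 0.411% of all genes, and 1 gene, Col1a2, was at an unadjusted p under 0.05, beside 11.3% of all genes. Col1a2 read 7.83, 7.68 and 7.67 in the WT bulbs and 7.59, 7.43 and 7.37 in the KO bulbs. All 3 KO values were below all 3 WT values, and the difference was -0.27 (SE 0.099, limma adjusted p = 0.348).

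Its partner Col1a1 read 7.95, 7.88 and 7.94 in WT and 7.83, 7.78 and 7.72 in KO. The groups did not overlap, with a difference of -0.15 (SE 0.089, limma adjusted p = 0.56). Fn1, the matrix glycoprotein fibronectin, read 10.15, 10.05 and 9.86 in WT and 9.79, 9.75 and 9.82 in KO. There the difference was -0.23 (SE 0.17, limma adjusted p = 0.623), and the lowest WT value, 9.86, was close to the highest KO value, 9.82. These 3 genes, 8.82% of the set, were those whose KO values were all lower, beside 8.87% of all genes. In 0 of the 34 were they all higher, beside 8.22%, and in either direction the share was 8.82% beside 17.1%. All 5 fibrillar collagens lay below 0 in the bulb, from -0.27 to -0.08, and kept that sign after centring. The widest negative difference in the bulb was that of Osr1 (-0.41, SE 0.26, limma adjusted p = 0.573), in which the WT bulbs alone spanned 6.73 to 7.93.

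**Figure D4:**
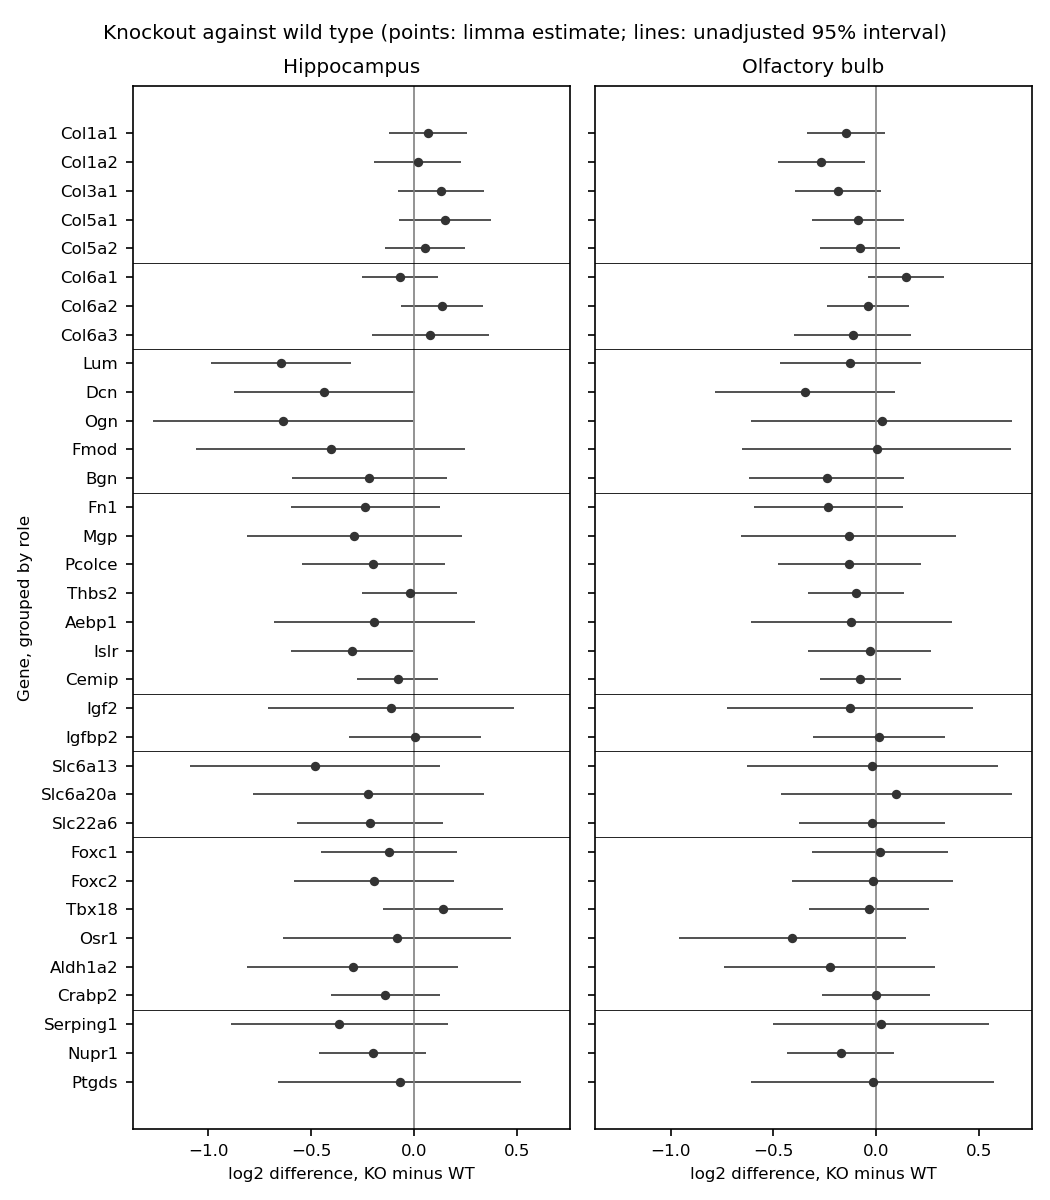
Points are the limma log2 differences, KO minus WT, for each of the 34 genes in hippocampus and in bulb, and lines are unadjusted 95% intervals. In hippocampus Lum lies farthest below 0 (-0.65), the fibrillar collagens lie just above 0, and none of the 34 genes passed the adjusted threshold in either tissue.

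Whether the genotype difference itself differed between the tissues was tested as an interaction. None of the 34 genes passed, where 0.015% of all genes did. Lum (-0.52, SE 0.23, limma adjusted p = 0.447) and Col3a1 (0.32, SE 0.14, limma adjusted p = 0.451) were at an unadjusted p under 0.05, beside 10.7% of all genes. The hippocampal and bulb values of Col3a1 were 7.10, 6.97 and 7.08 and 7.05, 7.03 and 6.69 in KO, against 6.97, 7.01 and 6.77 and 7.14, 7.01 and 7.18 in WT. The groups of this gene overlapped in both tissues.

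Of 268 further genes in 24 other lists of matrix, growth factor and cell type genes, 0 passed the limma adjusted threshold between genotypes in either tissue, and the lowest adjusted p was 0.128 in hippocampus and 0.083 in bulb. All 11 endothelial genes lay below 0 in hippocampus, with a median of -0.16, and 10 of 11 in bulb. All 8 myelin genes and all 7 ependymal genes lay above 0 in hippocampus, with medians of 0.267 and 0.195. In bulb 6 of each of these 2 lists lay below 0. The pericyte and smooth muscle genes were split in hippocampus, with 6 of 11 below 0. Of 36 other collagen genes 35 lay above 0 in hippocampus, with a median of 0.13, and 34 lay below 0 in bulb, with a median of -0.11. Over all genes 37% lay below 0 in hippocampus and 55.5% in bulb. With centred arrays, 32 of the 36 other collagens lay above 0 in hippocampus and 34 below 0 in bulb. Of all 19938 genes, 8869 and 10615 then did so.

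The tissues differed more than the genotypes. In WT mice 10 of the 34 genes differed between hippocampus and bulb at a limma adjusted p under 0.05, which is 29.4% beside 40.9% of all genes, and in KO mice 14 did, which is 41.2% beside 39.1%. In both genotypes 2 genes, Lum and Cemip, were higher in hippocampus, which is 5.88%, beside 17.5% of all genes in WT and 19.2% in KO. Lower in hippocampus were 8 genes in WT (23.5%, beside 23.4% of all genes) and 12 in KO (35.3%, beside 19.9%). The same 9 genes passed in both genotypes, 5 passed in KO alone and 1 in WT alone, but none of the interaction tests that compare the genotypes passed. The median difference of the 34 genes, hippocampus minus bulb, was -0.23 in WT and -0.37 in KO, beside -0.071 and 0.013 for all genes.

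The widest tissue differences, bulb over hippocampus, were those of Islr, Bgn, Fn1 and Thbs2. Islr, a leucine-rich repeat protein of mesenchymal cells, read 10.08, 10.02 and 10.23 in the WT bulbs and 8.74, 8.09 and 8.40 in the WT hippocampi. The log2 difference was -1.70 (SE 0.14, limma adjusted p = 1.16e-07) in WT and -1.97 (limma adjusted p = 2.24e-08) in KO. Bgn read 10.20, 10.18 and 9.66 in the WT bulbs, all above the hippocampal values given above, with a difference of -1.68 (SE 0.18, limma adjusted p = 1.7e-06). Fn1, with a difference of -1.42 in WT and -1.43 in KO, read 8.98, 8.14 and 8.67 in the WT hippocampi and at least 9.86 in each WT bulb.

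Thbs2 differed by -1.32 in WT and -1.24 in KO, Aebp1 by -0.96 and -1.04, Igfbp2 by -0.94 and -0.95 and Col6a1 by -0.84 and -1.06. Of these 4, the groups overlapped only for Aebp1 in WT, where the hippocampus of animal 1 (8.06) was above the bulb of animal 3 (7.94). In either direction, the tissues did not overlap for 32.4% of the 34 genes in WT, beside 50.9% of all genes. In KO the shares were 61.8% and 48.9%. Col6a1 was the only collagen VI gene to pass, with 8.75, 8.98 and 8.77 in the WT bulbs and values from 8.89 to 9.05 in the KO bulbs, all above the hippocampal range of 7.82 to 8.14 over both genotypes. Col1a2 was lower in hippocampus in WT (-0.36, SE 0.099, limma adjusted p = 0.00897) and differed by -0.08 in KO (limma adjusted p = 0.596).

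Lum and Cemip went the other way. Lum read 5.24, 5.42 and 5.16 in the WT bulbs and 5.16, 4.88 and 5.40 in the KO bulbs, below every hippocampal array of the same genotype. Its difference was 1.14 (SE 0.16, limma adjusted p = 3.37e-05) in WT and 0.62 (limma adjusted p = 0.0059) in KO. Cemip read 8.23, 8.03 and 8.08 in the WT hippocampi and 7.12, 7.42 and 7.11 in the WT bulbs. The difference was 0.90 in WT (SE 0.093, limma adjusted p = 1.39e-06) and 0.90 in KO.

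The 5 genes that passed in KO alone were Fmod (-1.16, limma adjusted p = 0.00658), Slc6a13 (-1.01, 0.0104), Slc6a20a (-0.83, 0.0211), Slc22a6 (-0.58, 0.0115) and Crabp2 (-0.37, 0.0264), which binds retinoic acid in the cytoplasm. Their WT differences were -0.76, -0.55, -0.51, -0.39 and -0.23. Without the hippocampal array of KO animal 6, Slc6a13 no longer passed (limma adjusted p = 0.0506). Slc6a20a no longer passed without the hippocampus of KO animal 4 or 6 or the bulb of KO animal 4, with limma adjusted p between 0.0517 and 0.0736. Crabp2 no longer passed without the hippocampus of KO animal 5 or 6 or the bulb of KO animal 4 or 5, between 0.0534 and 0.127. In WT the hippocampus of animal 1 read above at least 2 of the 3 bulbs for each transporter, for example 9.64 beside 9.50, 9.54 and 9.08 for Slc6a20a. Without the hippocampal array of WT animal 1, 20 of the 34 genes passed in WT in place of 10, beside 36.1% of all genes (7205) in that fit. Without animals 1 and 2 together 17 passed, beside 30% of all genes, but 1 array then stands for WT hippocampus and the other groups supply the spread.

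**Figure D5:**
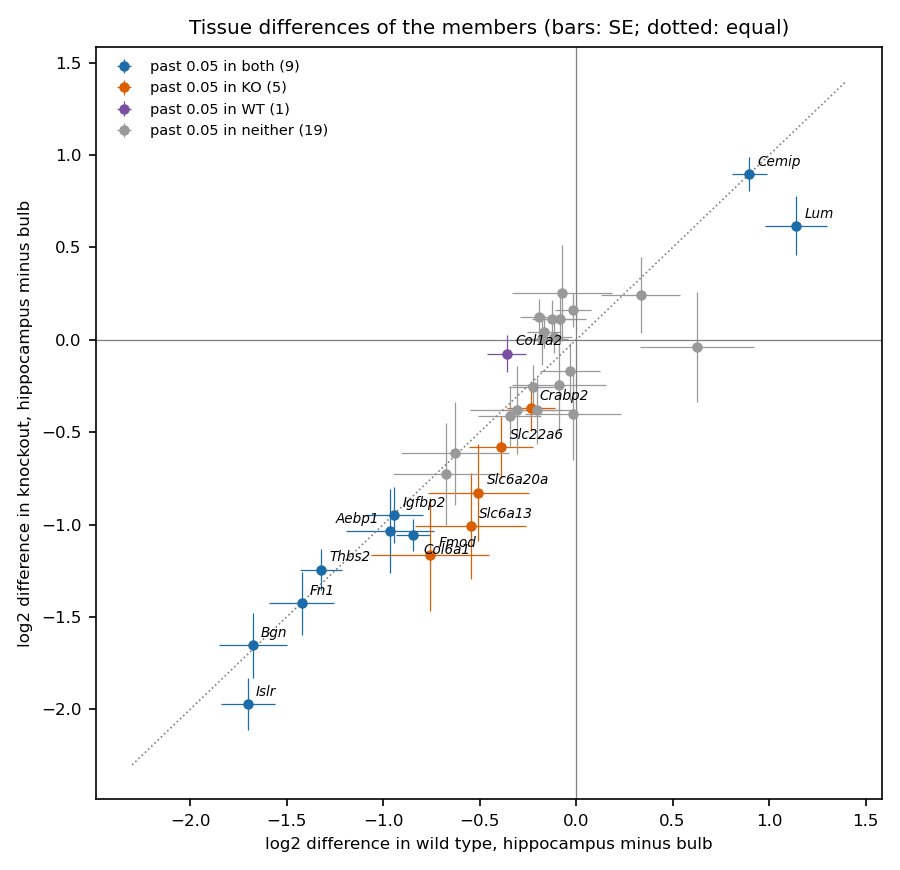
Each point is one gene, with the log2 difference, hippocampus minus bulb, in WT on the horizontal axis and in KO on the vertical axis and bars giving the SE. Islr, Bgn, Fn1 and Thbs2 lie lowest in both genotypes (-1.24 or below), and Lum and Cemip lie above 0 in both.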

How the data were processed

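Per the labels' protocols, Trizol-extracted total RNA was fragmented, biotinylated and run on 1-colour arrays. The deposited values are log2 intensities of 35556 probe sets in 12 samples, and RMA and oligo are named in the submitters' processing notes, with versions not given in the sources used here. Depth does not apply to arrays, and 3 arrays per group limit the precision. The platform annotation gave 1 symbol to 21789 probe sets and several to 1621, which were left out. Each of 19938 symbols was represented by its probe set of highest mean, and every one of the 34 measured genes had a single probe set.

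A model of 4 group means over 12 arrays was fitted with limma 3.58.1 in R 4.3.3 (lmFit, eBayes), with p-values adjusted over all genes by Benjamini-Hochberg and a threshold of 0.05. The code was checked on simulated data with known changes. The 3 arrays of a group are separate animals by their titles, so p-values rest on the spread between animals, pooled over the 4 groups. For the 34 genes the median SD was 0.388 in WT hippocampus and 0.220 in WT bulb. It was 0.128 in KO hippocampus and 0.0877 in KO bulb. Tests within KO or within bulb therefore also carry the WT hippocampal spread. Each animal gave both tissues, and the tissue tests did not pair them. Samples of the same animal did not deviate together throughout, so no block entered the model. Over all genes their correlations were -0.255 to 0.116 by animal code and -0.208 to 0.252 by title number. Over the 34 genes they were -0.535 to 0.646 and -0.649 to 0.508. The alternatives were a fit of the compared groups only, all probe sets, probe set means, a filter on low values, trend and robust moderation, array weights, centring, animal as a block and each array left out. Leaving out 2 WT hippocampal arrays together was added after seeing the data. All listed genes were named. From some of the other lists a few genes that differed between the tissues were named as examples, not always those with the widest difference. The 15 genes nearest to the set by correlation were named, clones and predicted genes aside. The genes, lists and tests were chosen with earlier results of these data known. Promoters came from RefSeq GRCm38.p6. Figures used matplotlib 3.10.9 (Python 3.11.15).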

Additional observations from a re-analysis of the deposited data

How the results depend on the processing

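Across the alternatives no member that passed changed sign. The count of the 34 genes past the threshold between genotypes stayed at 0 in bulb and for the interaction, and in hippocampus it was 1 (Lum) with array weights, where 336 of all genes passed in place of 51, and ranged from 0 to 1 over the fits that left out one array. Between tissues the count in WT ranged from 10 to 20 over those fits, the 20 coming without the hippocampal array of animal 1 (36.1% of all genes), and was 17 without WT hippocampal arrays 1 and 2 together (30% of all genes), where the lone WT hippocampal array is assumed to vary like the other groups. In KO it ranged from 12 to 17 over the fits that left out one array, and was 20 in the fit of the compared groups only. Of all genes, 33.4% to 39.6% passed in KO over the former and 37.9% in the latter. In WT, 34.2% to 42.5% of all genes passed over the fits that left out one array. With the animal as a replicate block, the counts were 0, 0, 0, 10 and 14, as without the block, by either the code or the title number. The median over the 34 genes, KO minus WT, ranged from -0.35 to 0.04 in hippocampus and from -0.18 to -0.02 in bulb over the fits that left out one array. Slc6a20a and Crabp2 in KO, hippocampus minus bulb, also missed the threshold when every probe set was tested (limma adjusted p = 0.0541 and 0.0554), Slc6a13 and Slc6a20a missed it under trend and robust moderation (0.0615 and 0.0915), and Crabp2 missed it with array weights (0.0862); the cause was not tested. With 3 arrays per group, differences of the more variable genes had standard errors of up to 0.31. Of the 34 genes, 9 were mostly below the median of all genes' values (7.28) and were left out by the filter on low values.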

Other observations

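Single genes of other matrix and growth factor lists differed between the tissues. At a limma adjusted p under 0.05, 40.9% of all genes did so in WT and 39.1% in KO. Among genes of the insulin-like growth factor system, Igf1, the hormone-like growth factor made by neurons and glia in brain, was lower in hippocampus than in bulb by a log2 difference of -2.12 in WT and -2.03 in KO (limma adjusted p = 8.28e-12 and 1.29e-11), and Igfbp4, which binds it, was higher by 0.78 and 0.99. Of 8 genes on that list 2 were higher and 6 lower in WT, and 2 and 5 in KO. Among TGF-beta genes, Ccn2, a matricellular protein, differed by -2.06 in WT and -2.21 in KO, and Tgfb2, a TGF-beta ligand, by 1.12 and 1.06, with 2 of 12 genes higher and 8 lower in WT and 2 and 5 in KO. Of 29 other meningeal and fibroblast genes, 3 were higher and 10 lower in WT, and 6 and 10 in KO. Zic1, a transcription factor of meninges and of some neurons, had the widest gap, -2.66 in WT and -2.55 in KO.

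Of 11 basement membrane genes 1 was higher and 5 lower in hippocampus in each genotype, with Nid1 (nidogen) at -1.74 in WT and -1.69 in KO and Lamb1, a laminin chain, at 1.22 and 1.26. Of 26 collagen biosynthesis genes 3 were higher and 9 lower in WT and 5 and 8 in KO, and Tll1, a procollagen-cleaving protease, differed by -1.69 in WT and -1.84 in KO. Among 36 other collagens 2 were higher and 6 lower in WT but 5 higher and 3 lower in KO, in both 22.2% of the list, with Col25a1, a membrane collagen of neurons, at 0.84 in WT and 1.32 in KO. Of 11 other small leucine-rich proteins 2 were higher and 2 lower in WT and 4 and 2 in KO, and Prelp, a collagen-binding member of this family, stood at 0.83 in both genotypes. Of all genes, 17.5% were higher and 23.4% lower in hippocampus in WT, and 19.2% and 19.9% in KO. Shares called above or below these were not tested, and these lists share the arrays of the tissue comparison above.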
